A study of Rattus norvegicus with 17 samples.

Results

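Cathepsins, the vacuolar proton pump (V-ATPase) and the lysosome-associated membrane proteins (Lamp) were followed in rat liver after bile duct ligation, with and without ghrelin. All genes of the array whose symbol begins with Cts and a further letter, with Atp6v0 or Atp6v1, or with Lamp and a number were taken, whatever their values. These are 42 of the 14217 genes that have a probe set naming 1 gene, namely 18 cathepsins, 8 genes of the V0 part of the pump, 12 of its V1 part and 4 Lamp genes. Each gene is represented by its brightest probe set.

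The data are from 17 livers of Rattus norvegicus, each on an Affymetrix Rat Genome 230 2.0 array, 1 rat per array. In 5 rats the bile duct was ligated and recombinant ghrelin, a stomach peptide hormone, was given at 10 µg/kg/day (ligated ghrelin). Another 6 were ligated and given saline (ligated saline), and 6 had an abdominal incision without ligation and were given saline (sham). Every infusion ran from a subcutaneous osmotic minipump. Surgery took place at week 7, and livers were collected 2 weeks afterwards, at week 9. The sources used here name neither strain nor sex, and sham rats with ghrelin were not analysed here. The samples are whole liver, so fewer cells of a type and less RNA per cell cannot be told apart in any value given here. Median intensity was 15.4 to 16.4 on ligated ghrelin arrays, 16.1 to 17.5 on ligated saline arrays and 14.2 to 14.7 on sham arrays. The correlation between arrays of a group, across probe sets, was 0.988 to 0.995.

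Lysosomes break down material taken up by the cell or delivered by autophagy. The V-ATPase acidifies them: its V1 part, on the cytosolic side, hydrolyses ATP and turns a rotor, and its V0 part, in the membrane, carries the protons. Cathepsins are the proteases of this acid compartment, most of them cysteine proteases, with Ctsd and Ctse as aspartic proteases and Ctsa as a serine carboxypeptidase, while Lamp1 and Lamp2 are heavily glycosylated proteins that line the lysosomal membrane. In liver, hepatocytes hold many lysosomes, and Kupffer cells, the resident macrophages, are rich in them. All values below are log2 intensity, a level, unless called a change. A change is the difference of group means with its SE from limma, and a gene rose or fell where the Benjamini-Hochberg adjusted p over all kept probe sets was under 0.05.

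Of the 42 genes, 29 exceeded the detection level of 3.95 on at least 5 arrays and were tested. They were 12 cathepsins, 7 V0 genes, 8 V1 genes and 2 Lamp genes. The other 13 were below that level on all 17 arrays. Among them are Ctsj, Ctsm, Ctsq, Ctsql2 and Ctsr, which lie on chromosome 17 in the RefSeq annotation of GRCr8 and belong to a rodent cathepsin group known from placenta, and Ctsw, a cathepsin of T and NK cells. The highest Ctsw value was 2.46 in ligated ghrelin rats, 3.61 in ligated saline rats and 2.50 in sham rats. Also below the level were Atp6v0a4, Atp6v1b1, Atp6v1c2, Atp6v1g2 and Atp6v1g3, pump isoforms known from kidney, other epithelia or brain, and Lamp3 and Lamp5, known from dendritic cells and brain. A value below the level is not evidence that a gene is silent.

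Ligated saline livers were set against sham livers to ask how ligation altered these genes. Of the 29 tested genes 15 rose, 4 fell and 10 were not called. Over all 9733 genes tested, 37.5% rose and 27.2% fell (64.7% called in either direction), so a change as such was common on these arrays. The groups did not overlap for 11 genes that were higher and 3 that were lower, against 25.9% and 18.6% of all genes tested (44.5% in either direction). The median change was 0.19 for the 29 genes and 0.07 for all genes. The cathepsins had the largest changes: 7 of 12 rose, with a median change of 0.62, and 1 fell. In the pump, 5 of 8 V1 genes rose and 0 fell, while 2 of 7 V0 genes rose and 3 fell, with median changes of 0.23 and -0.08. The deposited values set the balance of small changes. Quantile normalization moves the median ligation change of all kept probe sets by -0.15, and setting array medians equal moves it by -0.19. All 19 calls were kept under quantile normalization, and equal array medians kept 14. The 5 lost with equal medians were Atp6v0c, Atp6v0e1, Atp6v1b2, Atp6v1e1 and Atp6v1f.

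Among the cathepsins, Ctse changed most. It encodes an aspartic protease of endosomes in epithelial and immune cells. It read 6.38, 5.70, 5.83, 6.42 and 6.65 in ligated ghrelin rats, 6.20 to 7.77 (median 6.88) in ligated saline rats and 3.12 to 5.23 (median 4.58) in sham rats. Every ligated array was above every sham array, and the ligation change was 2.52 ± 0.312 (limma adjusted p = 3.15e-06, 5.74-fold, n = 6 and 6). The lowest sham value lies below the detection level, so the size is approximate.

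Ctsk, a collagen-degrading cysteine protease best known from osteoclasts, read 5.86, 5.66, 6.08, 5.90 and 5.75 in ligated ghrelin rats. Its range was 5.86 to 7.32 (median 6.73) in ligated saline rats and 4.21 to 4.97 (median 4.76) in sham rats. The ligated and sham groups did not overlap, and Ctsk rose by 1.99 ± 0.218 (limma adjusted p = 8.2e-07, 3.98-fold). Ctss, which trims the invariant chain of MHC class II in antigen-presenting cells, lies on chromosome 2 near Ctsk, with 2 annotated genes between them. Ctss read 12.67, 11.82, 12.23, 12.48 and 12.50 in ligated ghrelin rats, 12.44 to 12.77 (median 12.67) in ligated saline rats and 10.87 to 11.79 (median 11.21) in sham rats. It rose by 1.31 ± 0.158 (limma adjusted p = 2.53e-06, 2.47-fold), again without overlap.

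Ctsz, a cysteine carboxypeptidase, read 10.92, 10.52, 10.49, 11.06 and 10.89 in ligated ghrelin rats, 10.69 to 11.29 (median 10.93) in ligated saline rats and 9.16 to 10.12 (median 9.79) in sham rats. The ligation change was 1.25 ± 0.154 (limma adjusted p = 3.05e-06, 2.37-fold). Ctsd, the main aspartic protease of lysosomes, read 11.16, 10.72, 11.00, 11.24 and 11.32 in ligated ghrelin rats, 11.02 to 11.41 (median 11.12) in ligated saline rats and 10.26 to 10.54 (median 10.34) in sham rats. Its change was 0.82 ± 0.102 (limma adjusted p = 3.14e-06, 1.77-fold). For both genes all ligated arrays lay above all sham arrays.

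Ctsb and Ctsl, abundant cysteine proteases of most cells, had smaller changes with little spread. Ctsb averaged 13.31 ± 0.0785 in ligated ghrelin rats, 13.34 ± 0.0466 in ligated saline rats and 12.70 ± 0.13 in sham rats (SD, n = 5, 6 and 6) and rose by 0.64 ± 0.0671 with ligation (limma adjusted p = 5.24e-07). Ctsl read 14.30, 14.30, 14.27, 14.33 and 14.39 in ligated ghrelin rats, 14.40 to 14.56 (median 14.47) in ligated saline rats and 13.77 to 13.95 (median 13.87) in sham rats. It rose by 0.61 ± 0.0567 (limma adjusted p = 1.53e-07). Its second probe set, dimmer, rose by 1.06 ± 0.0924 (limma adjusted p = 7.25e-08). The brighter one lies nearer the top of the scale, whose highest value on any array was 15.92. The reason for the unequal changes of the probe sets was not tested.

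Ctsc, the dipeptidyl peptidase that activates the serine proteases of immune cell granules, was the only cathepsin of the 12 tested that fell. It read 12.99, 13.05, 12.90, 12.77 and 13.08 in ligated ghrelin rats, 12.68 to 12.99 (median 12.78) in ligated saline rats and 13.09 to 13.32 (median 13.15) in sham rats. The ligated saline and sham groups did not overlap, and the change was -0.36 ± 0.0763 (limma adjusted p = 0.000578). Its second probe set changed by -0.31 (limma adjusted p = 0.0236). The remaining cathepsins did not pass: the changes were 0.16 for Ctso, 0.09 for the carboxypeptidase Ctsa, 0.02 for the aminopeptidase Ctsh and -0.00 for Ctsf. By protease class, 5 of 9 cysteine cathepsins rose and 1 fell, both aspartic ones rose and the serine one was not called.

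**Figure D1:**
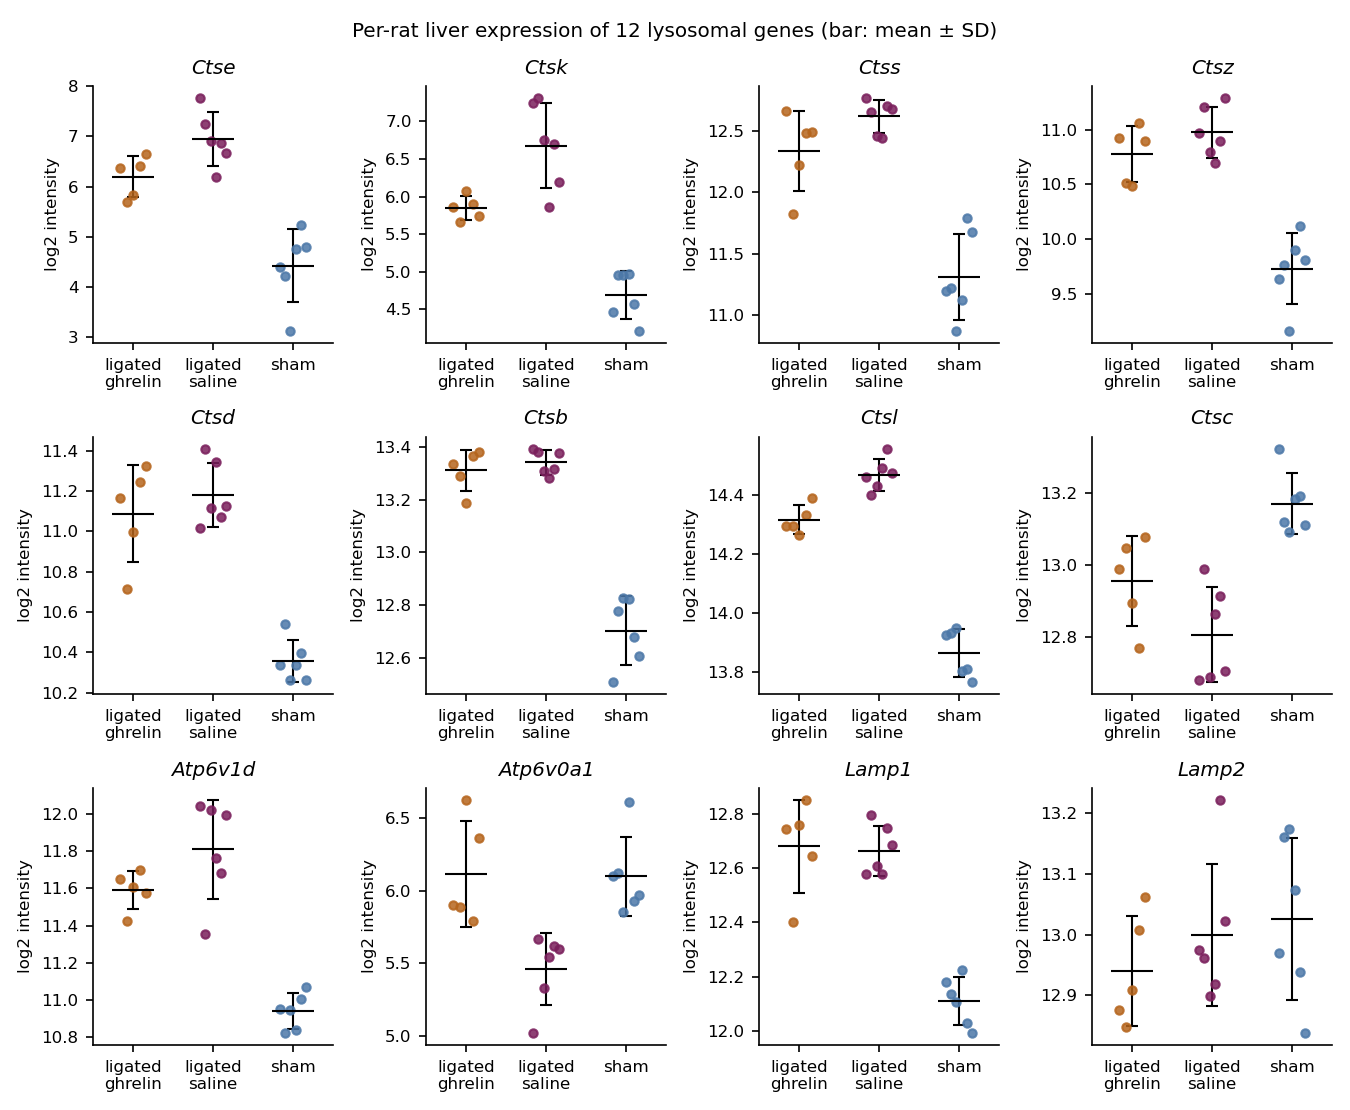
Log2 intensity (vertical axes, which do not start at 0) of 12 genes, 1 point per rat, in ligated ghrelin, ligated saline and sham livers, with bars at the mean ± SD. For Ctse, Ctsk, Ctss, Ctsz, Ctsd, Ctsb and Ctsl all ligated rats lie above all sham rats, while Ctsc lies lower and Atp6v0a1 is lowest in ligated saline rats.

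Several cell type markers moved with the cathepsins, and their part in these changes was not tested. The counts for ligation stand beside 37.5% of all genes tested that rose and 27.2% that fell. Of 13 tested Kupffer cell and macrophage markers 12 rose and 0 fell, and their summed intensity was 20628 to 31200 in ligated ghrelin rats, 27992 to 37482 in ligated saline rats and 10150 to 18542 in sham rats. Cd68 of this list and Acp5 of the osteoclast list also belong to the lysosomal lists given further on. The macrophage marker Trem2 was below the detection level on all arrays. Of the neutrophil markers 3 were tested and rose, of which Csf3r was below the level on every sham array and so was tested only because it was high in ligated rats (summed intensity 3667 to 7620, 1724 to 6575 and 237 to 597, in the same order), with Cxcr2 and Camp below the level on all arrays. The 8 tested bile duct markers rose, of which Cftr and Sctr were below the level on every sham array and so were tested only because they were high in ligated rats (8461 to 13574, 6642 to 20670 and 820 to 1125). The stellate cell and myofibroblast list had 11 of 12 higher and 1 lower (12453 to 16068, 14705 to 33156 and 3570 to 4819). Both tested osteoclast markers, Acp5 and Nfatc1, rose (730 to 1723, 1250 to 2107 and 378 to 709), and Calcr, the calcitonin receptor, also on this list, was below the level on all arrays. Of 5 tested genes of the lymphocyte and NK cell list 3 rose (Cd4, Lck and Ptprc) and 1 fell (Prf1). The T cell gene Cd3e was not called (0.14, limma adjusted p = 0.686). The summed intensity of the list was 926 to 1538, 1320 to 2473 and 492 to 1045, with Cd3d, Cd79b and Ms4a1 below the level on all arrays. Of the mast cell markers 2 were tested and 0 called, with Mcpt1l1 below the level on every sham array (104 to 142, 88 to 177 and 94 to 99), and Tpsb2, Kit, Ms4a2 and Fcer1a were below the level on all arrays. Of 6 sinusoidal endothelial markers 2 rose and 1 fell (4906 to 7142, 6237 to 8063 and 5930 to 8084). These are smaller shares than those of all genes, so nothing is read from them. Of 15 hepatocyte markers 8 fell and 0 rose (264292 to 302520, 230174 to 285985 and 329401 to 360946).

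In the V1 part of the pump the largest change was that of Atp6v1d, a subunit of the central rotor. It read 11.65, 11.43, 11.61, 11.70 and 11.57 in ligated ghrelin rats, 11.35 to 12.04 (median 11.88) in ligated saline rats and 10.82 to 11.07 (median 10.95) in sham rats. The ligated and sham groups did not overlap, and Atp6v1d rose by 0.87 ± 0.106 (limma adjusted p = 2.5e-06). Atp6v1a, the catalytic subunit, read 10.33, 10.22, 10.12, 10.50 and 10.29 in ligated ghrelin rats, 10.29 to 10.56 (median 10.46) in ligated saline rats and 9.89 to 10.16 (median 10.00) in sham rats. It rose by 0.44 ± 0.0764 (limma adjusted p = 0.000105), and its second probe set by 0.44 as well, with ligated saline above sham on every array of the main probe set.

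The other V1 increases were smaller and the groups overlapped. Atp6v1b2, the nucleotide-binding partner of the catalytic subunit, read 9.23, 8.93, 9.15, 9.26 and 9.24 in ligated ghrelin rats, 9.15 to 9.41 (median 9.28) in ligated saline rats and 8.72 to 9.18 (median 8.97) in sham rats, a ligation change of 0.32 ± 0.083 (limma adjusted p = 0.0034). Its second probe set was at 0.27 and did not pass (limma adjusted p = 0.334). Atp6v1e1, of the peripheral stalks, read 9.44, 9.59, 9.42, 9.70 and 9.73 in ligated ghrelin rats, 9.38 to 9.80 (median 9.54) in ligated saline rats and 9.06 to 9.41 (median 9.32) in sham rats, and rose by 0.27 ± 0.0856 (limma adjusted p = 0.011). Atp6v1f rose by 0.19 ± 0.0746 (limma adjusted p = 0.0376), a call lost without sham 1, sham 3, ligated saline 1 or ligated saline 6 (changes of 0.14 to 0.18), and when the 2 groups were fitted alone (limma adjusted p = 0.065). The peripheral stalk subunits Atp6v1c1 and Atp6v1g1 and the regulatory subunit Atp6v1h were not called, with changes of 0.09, 0.02 and 0.08.

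The V0 genes moved in both directions. Atp6v0a1, an isoform of the large membrane subunit through which the protons pass, read 5.90, 5.89, 6.63, 5.79 and 6.36 in ligated ghrelin rats, 5.01 to 5.67 (median 5.57) in ligated saline rats and 5.85 to 6.61 (median 6.03) in sham rats. All ligated saline arrays lay below all sham arrays, and the ligation change was -0.64 ± 0.163 (limma adjusted p = 0.00282). Atp6v0d1, which couples the rotor of V1 to the membrane ring, read 11.27, 11.48, 11.11, 11.18 and 11.40 in ligated ghrelin rats, 11.14 to 11.36 (median 11.24) in ligated saline rats and 11.43 to 11.69 (median 11.57) in sham rats. It changed by -0.33 ± 0.0743 (limma adjusted p = 0.000932), also without overlap between ligated saline and sham. Atp6v0b, a proteolipid of the proton-carrying ring, read 9.99, 9.99, 9.99, 9.81 and 9.99 in ligated ghrelin rats, 9.79 to 10.10 (median 9.90) in ligated saline rats and 10.00 to 10.21 (median 10.08) in sham rats. Its change was -0.19 ± 0.067 (limma adjusted p = 0.0208), and -0.17 with an adjusted p of 0.0504 without ligated saline 5.

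The V0 genes that rose were Atp6v0c and Atp6v0e1. Atp6v0c, the main proteolipid of the ring, read 12.51, 12.46, 12.33, 12.54 and 12.56 in ligated ghrelin rats, 12.39 to 12.53 (median 12.42) in ligated saline rats and 12.01 to 12.33 (median 12.18) in sham rats. It rose by 0.27 ± 0.0693 (limma adjusted p = 0.003), without overlap between ligated saline and sham. Atp6v0e1, a small membrane subunit, read 10.77, 10.81, 10.54, 10.69 and 10.90 in ligated ghrelin rats, 10.78 to 11.11 (median 10.92) in ligated saline rats and 10.46 to 10.78 (median 10.63) in sham rats. Its change was 0.30 ± 0.0777 (limma adjusted p = 0.00322). Atp6v0a2 and Atp6v0e2 were not called, with changes of -0.06 and -0.08.

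Lamp1 and Lamp2 gave different answers on their brightest probe sets. Lamp1 read 12.74, 12.40, 12.76, 12.85 and 12.64 in ligated ghrelin rats, 12.58 to 12.79 (median 12.65) in ligated saline rats and 11.99 to 12.22 (median 12.12) in sham rats. It rose by 0.55 ± 0.0782 (limma adjusted p = 1.26e-05), without overlap. Lamp2 read 12.88, 12.85, 12.91, 13.01 and 13.06 in ligated ghrelin rats, 12.90 to 13.22 (median 12.97) in ligated saline rats and 12.84 to 13.17 (median 13.02) in sham rats, a change of -0.03 ± 0.077 (limma adjusted p = 0.788). The second Lamp2 probe set, with means of 11.18, 11.22 and 10.80 in the same order of groups, rose by 0.42 ± 0.0965 (limma adjusted p = 0.00115). The pair of probe sets disagree, so no direction is given for Lamp2.

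**Figure D2:**
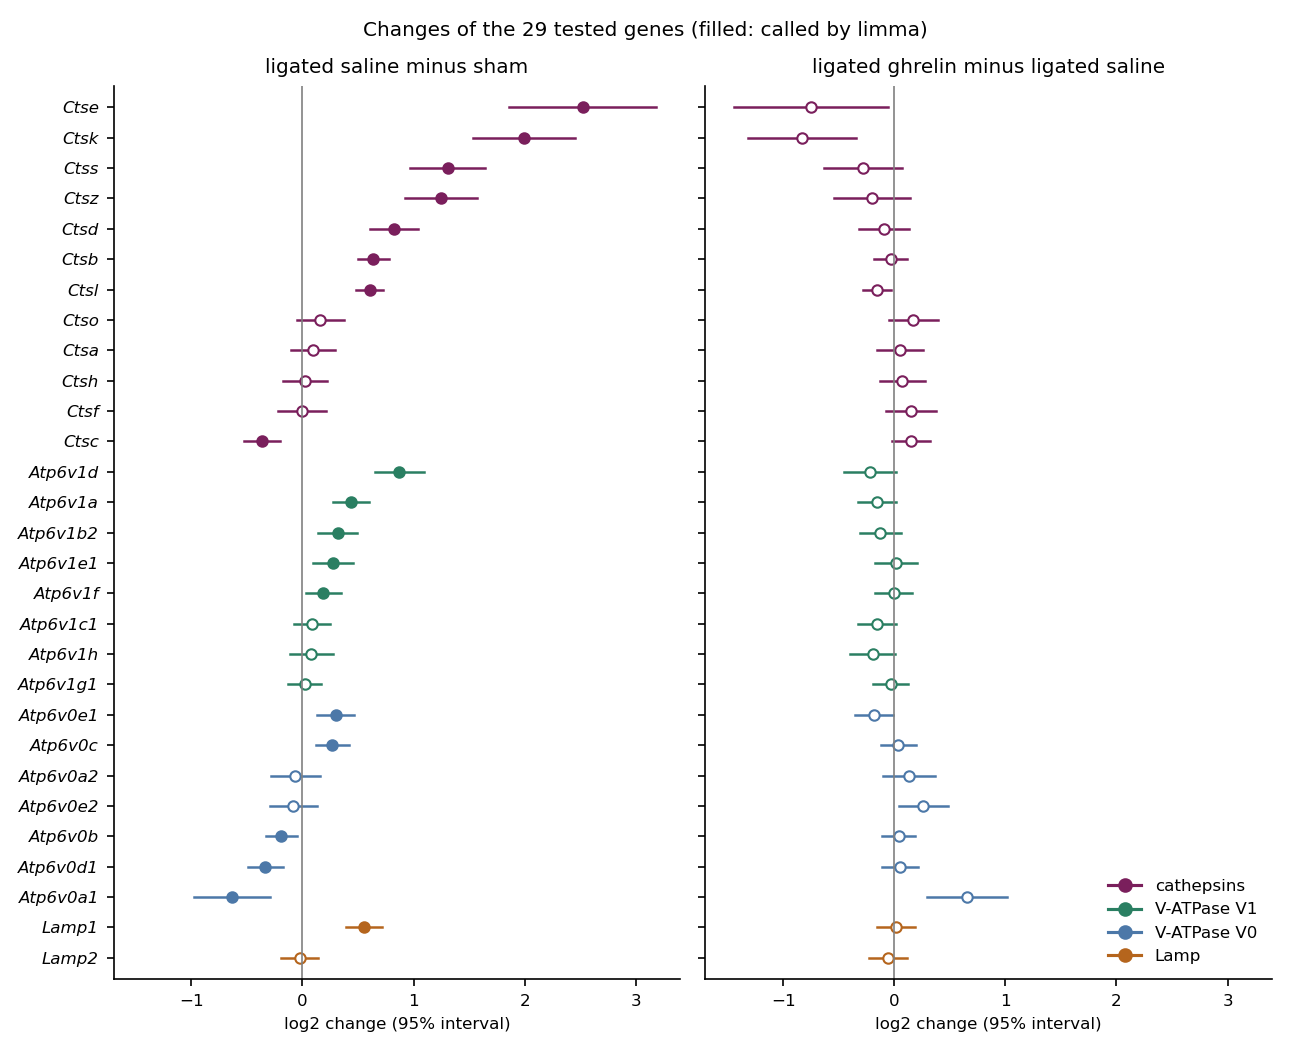
Log2 change with its 95% interval (horizontal axes) of the 29 tested genes, for ligation and for ghrelin, with filled points for genes called by limma and colours for the 4 classes. For ligation 15 genes are called higher and 4 lower, and for ghrelin 0 are called.

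Promoter sequences are shown because lysosomal genes in human cells often carry, close to the start of transcription, a motif with the core CACGTG that is bound by TFEB and its relatives. Windows of 300 bases, 250 before to 50 after the start, were read from RefSeq (GRCr8) and searched for CACGTG, which reads the same on both strands. Of the 42 genes 34 had a window, and 5 of these (14.7%) held the core, against 2148 of 33469 windows of all genes (6.42%). Lamp1 held 5 copies, Ctsd 2, and Atp6v0d1, Atp6v0e1 and Ctsf 1 each. The longer TCACGTGA, which contains the core, was in the windows of Lamp1, Ctsd, Atp6v0d1 and Atp6v0e1 (11.8%, against 0.777% of all windows). Of the 5 genes with the core, Lamp1, Ctsd and Atp6v0e1 rose with ligation, Atp6v0d1 fell and Ctsf was not called, while Ctse, Ctsk, Ctss and Ctsz, the largest increases, had no match in this window. A match describes letters and not binding. The 250 bases before the start are given 5′ to 3′ on the strand of the gene, with the core in capitals, for the genes with the most copies, for a gene that fell and, as a gene that rose without the core, for Ctss. The windows are Lamp1 (chr16:83075064-83075313, minus strand), Ctsd (chr1:206968822-206969071, minus strand), Atp6v0d1 (chr19:50357249-50357498, minus strand) and Ctss (chr2:185775146-185775395, plus strand).
Lamp1: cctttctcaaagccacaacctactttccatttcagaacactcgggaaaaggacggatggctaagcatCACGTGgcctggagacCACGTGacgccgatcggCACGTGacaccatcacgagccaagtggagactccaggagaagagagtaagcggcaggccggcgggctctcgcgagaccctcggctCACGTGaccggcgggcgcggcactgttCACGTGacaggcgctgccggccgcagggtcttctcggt
Ctsd: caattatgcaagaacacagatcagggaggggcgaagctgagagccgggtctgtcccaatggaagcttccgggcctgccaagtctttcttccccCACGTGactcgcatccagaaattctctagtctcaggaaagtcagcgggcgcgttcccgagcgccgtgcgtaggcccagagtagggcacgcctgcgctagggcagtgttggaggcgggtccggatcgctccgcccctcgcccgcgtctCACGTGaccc
Atp6v0d1: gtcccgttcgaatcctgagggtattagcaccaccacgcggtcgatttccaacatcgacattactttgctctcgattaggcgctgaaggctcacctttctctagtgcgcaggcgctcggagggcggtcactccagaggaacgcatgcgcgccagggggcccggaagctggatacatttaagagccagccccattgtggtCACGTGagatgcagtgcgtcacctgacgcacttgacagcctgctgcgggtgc
Ctss: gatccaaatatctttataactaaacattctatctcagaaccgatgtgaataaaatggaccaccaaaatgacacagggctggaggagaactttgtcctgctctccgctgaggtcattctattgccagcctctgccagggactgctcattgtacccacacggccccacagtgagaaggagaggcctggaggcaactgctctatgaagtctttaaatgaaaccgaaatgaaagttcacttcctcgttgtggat

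Alternative forms of a subunit were compared within arrays. A difference between 2 probe sets on the same array is not moved by a constant log2 shift of that array. Quantile normalization can move it, and the pair tests were run on the deposited values only. Of the pairs listed for this test, 3 had both genes tested, and pairs of unrelated genes were not compared. The within-array difference Atp6v0a1 minus Atp6v0a2 averaged -1.85 ± 0.198 in ligated saline rats and -1.28 ± 0.284 in sham rats (SD, n = 6 each), a change of -0.57 (exact two-sided permutation p = 0.00433, adjusted p = 0.00649 over 3 pairs). Atp6v0e1 minus Atp6v0e2 averaged 2.55 ± 0.155 in ligated saline rats and 2.17 ± 0.216 in sham rats, a change of 0.38 (exact permutation adjusted p = 0.00866). Lamp1 minus Lamp2 averaged -0.34 ± 0.104 in ligated saline rats and -0.92 ± 0.11 in sham rats, a change of 0.58, or 0.36 over all kept probe sets (exact permutation adjusted p = 0.00648 and 0.00325). The smallest p this design can give is 0.00216. These differences show unequal change of the probe sets used, and the level of a probe set is not set against that of another. For Lamp1 minus Lamp2 the size depends on the Lamp2 probe set. The second Lamp2 probe set rose by 0.42 where Lamp1 rose by 0.55, and that probe set was not paired alone with Lamp1. With 64.7% of all genes called for ligation, unequal change is not particular to these pairs.

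In ligated rats with ghrelin the same differences were measured against ligated saline. Atp6v0a1 minus Atp6v0a2 averaged -1.33 ± 0.376 in ligated ghrelin rats and -1.85 ± 0.198 in ligated saline rats, a change of 0.52 (exact permutation p = 0.013, adjusted p = 0.0195, n = 5 and 6). Atp6v0e1 minus Atp6v0e2 averaged 2.11 ± 0.238 in ligated ghrelin rats and 2.55 ± 0.155 in ligated saline rats, a change of -0.45 (exact permutation adjusted p = 0.0195). Lamp1 minus Lamp2 was at 0.08 and did not pass (exact permutation adjusted p = 0.351). The smallest p possible here is 0.00433. The ligated saline arrays are shared with the ligation comparison, so a deviation in them enters both with opposite sign.

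**Figure D3:**
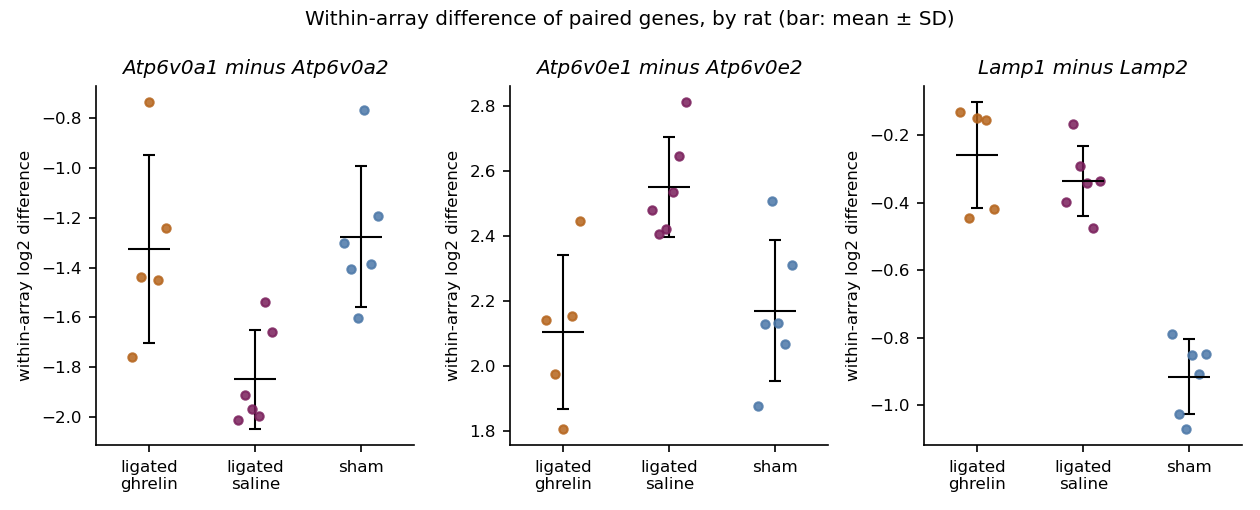
Within-array log2 difference of 3 pairs of related genes (vertical axes), 1 point per rat, in ligated ghrelin, ligated saline and sham livers, with bars at the mean ± SD. Atp6v0a1 minus Atp6v0a2 is lowest in ligated saline rats (mean -1.85), and Atp6v0e1 minus Atp6v0e2 is highest there (mean 2.55).

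The comparison of ligated ghrelin with ligated saline rats asked what ghrelin did in ligated livers. None of the 29 genes was called by limma (0 higher and 0 lower), where 1.76% of all genes tested rose and 0.586% fell (2.34% in either direction). At an unadjusted p under 0.05 there were 6 genes. Atp6v0a1 and Atp6v0e2 were higher, and Atp6v0e1, Ctse, Ctsk and Ctsl were lower. The share of all genes at this unadjusted cut was not counted, so nothing is read from the number of genes that passed it. The median change was -0.03 for the 29 genes and 0.01 for all genes. The groups did not overlap for Atp6v0a1 (higher) and Ctsl (lower), and for 3.04% and 1.49% of all genes tested (4.53% in either direction). Which genes lie nearest to a call depends on the probe set. Second probe sets changed by -0.32 for Atp6v1a, -0.57 for Atp6v1b2 and -0.11 for Ctsl (limma adjusted p = 0.0804, 0.194 and 0.55).

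Ctsk averaged 5.85 ± 0.158 in ligated ghrelin rats and 6.68 ± 0.571 in ligated saline rats (SD, n = 5 and 6), a ghrelin change of -0.83 ± 0.228 with a 95% interval of -1.31 to -0.35 (limma adjusted p = 0.0596). The change was -0.99 without ligated saline 4 (limma adjusted p = 0.0221), and the groups overlapped between 5.86 and 6.08. Atp6v0a1 averaged 6.11 ± 0.364 in ligated ghrelin rats and 5.46 ± 0.249 in ligated saline rats, a change of 0.65 ± 0.171 with a 95% interval of 0.29 to 1.01 (limma adjusted p = 0.0532). It passed under 3 of the other settings and without ligated ghrelin 4 (change 0.73, limma adjusted p = 0.0391). Ctsl changed by -0.15 ± 0.0595 (95% interval -0.28 to -0.03, limma adjusted p = 0.155) and Ctse by -0.75 ± 0.327 (95% interval -1.44 to -0.06, limma adjusted p = 0.203). Of the marker lists only the stellate cell list had a call, Col3a1, a fibrillar collagen, which was lower, and none of the macrophage or osteoclast markers was called. Their part in these values was not tested.

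Ligation and ghrelin together were read from ligated ghrelin against sham rats, which shares arrays with both other comparisons. Of the 29 genes 13 rose and 2 fell, against 35.0% and 21.2% of all genes tested (56.2% called in either direction). Groups did not overlap for 11 higher and 2 lower genes, against 24.9% and 14.0% (39.0% in either direction). Ctse was 1.77 ± 0.327 above sham, Ctsk 1.16 ± 0.228, Ctss 1.03 ± 0.166 and Ctsz 1.05 ± 0.161, and Lamp1 0.57 ± 0.082. Ctso was 0.33 ± 0.106 above sham (limma adjusted p = 0.0138), having not passed in ligated saline rats; the difference between those changes is the ghrelin change of 0.17, which did not pass. With equal array medians Ctso was at 0.21 (limma adjusted p = 0.116), and Atp6v1a and Atp6v1e1 were not called either. Over the mean of its probe sets Atp6v1a was also not called (0.20, limma adjusted p = 0.0572). The second Atp6v1a probe set was at 0.11 (limma adjusted p = 0.359). Of the 15 calls, 11 were kept under every alternative. Atp6v0d1 and Ctsc fell, with changes of -0.28 ± 0.0779 and -0.21 ± 0.08. The Ctsc call was lost after quantile normalization (-0.14, limma adjusted p = 0.143) and without sham 1, sham 5, ligated ghrelin 3 or ligated ghrelin 4 (changes of -0.17 to -0.21). Atp6v0a1 was at 0.02 ± 0.171 (95% interval -0.34 to 0.38).

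Other genes linked to lysosomes were counted from 8 lists, of which 95 of 113 genes were tested. The lists include protease inhibitors and regulators, so not every gene counted encodes a lysosomal protein. With ligation 48 rose and 13 fell, with a median change of 0.21, beside the 37.5% and 27.2% of all genes tested. With ghrelin 0 rose and 1 fell, beside 1.76% and 0.586% of all genes. The 2 genes named of each list are those with the lowest p. The hydrolases of sugars, lipids and other substrates had 17 of 27 higher and 2 lower, with Asah1, the acid ceramidase, at 1.28 ± 0.0945 and Arsb, a sulfatase of glycosaminoglycans, at 1.22 ± 0.11. Of 5 further lysosomal peptidases 4 rose and 1 fell: legumain (Lgmn), which processes cathepsins to their mature form, rose by 1.71 ± 0.11, and Cpq, a carboxypeptidase, changed by -1.79 ± 0.141. Of 3 activator and lipid-transfer proteins 2 rose and 1 fell, with Npc2, a cholesterol carrier, at 0.78 and Gm2a, the GM2 activator, at -0.67. In the membrane proteins and transporters 7 of 18 rose and 5 fell, shares close to the 37.5% and 27.2% of all genes, so nothing is read from these counts. Cd63 changed by 1.86 ± 0.166 and Laptm4b by 1.23 ± 0.139.

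Of 16 genes that deliver enzymes and membrane to the lysosome 6 rose and 2 fell, no larger a share of increases than the 37.5% of all genes. The mannose 6-phosphate receptors were both higher, with Igf2r at 1.46 ± 0.103 and M6pr at 0.57 ± 0.0758. Of 5 further tested pump genes, not among the 42, 2 rose and 0 fell, a share of increases close to the 37.5% of all genes. The 2 were Ncoa7, a protein that binds the pump, at 1.56 ± 0.134 and Atp6ap1, an accessory subunit, at 0.56 ± 0.0748. Tcirg1 encodes another isoform of the large membrane subunit and is named after its value was seen. It was at -0.21 (limma adjusted p = 0.0623), and at -0.25 in ligated ghrelin against sham rats (limma adjusted p = 0.041). Among 7 protease inhibitors 6 rose and 1 fell, with Serpinb9 (2.58 ± 0.179), which inhibits granzyme B, and Serpinb1a (4.27 ± 0.296), which inhibits neutrophil serine proteases. These do not chiefly act on lysosomal cathepsins, whereas cystatin C (Cst3), named after its value was seen, does and rose by 1.06. Of 14 regulators of lysosomal genes 4 rose and 1 fell, smaller shares than the 37.5% and 27.2% of all genes. The transcription factor Tfec was at 1.26 ± 0.184 and Lamtor4, of the complex that anchors mTORC1 to lysosomes, at -0.54 ± 0.0992. Tfeb, named after its value was seen, was at -0.07 (limma adjusted p = 0.581). Its means of 4.24, 4.15 and 4.22 in ligated ghrelin, ligated saline and sham rats lie close to the detection level of 3.95. A change of Tfeb could be missed there. The gene that fell with ghrelin was Ids, a lysosomal sulfatase (-0.46, limma adjusted p = 0.047). At an unadjusted p under 0.05 there were 20 list genes, of which 12 were higher. The share of all genes at that cut was not counted, so nothing is read from these counts.

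**Figure D4:**
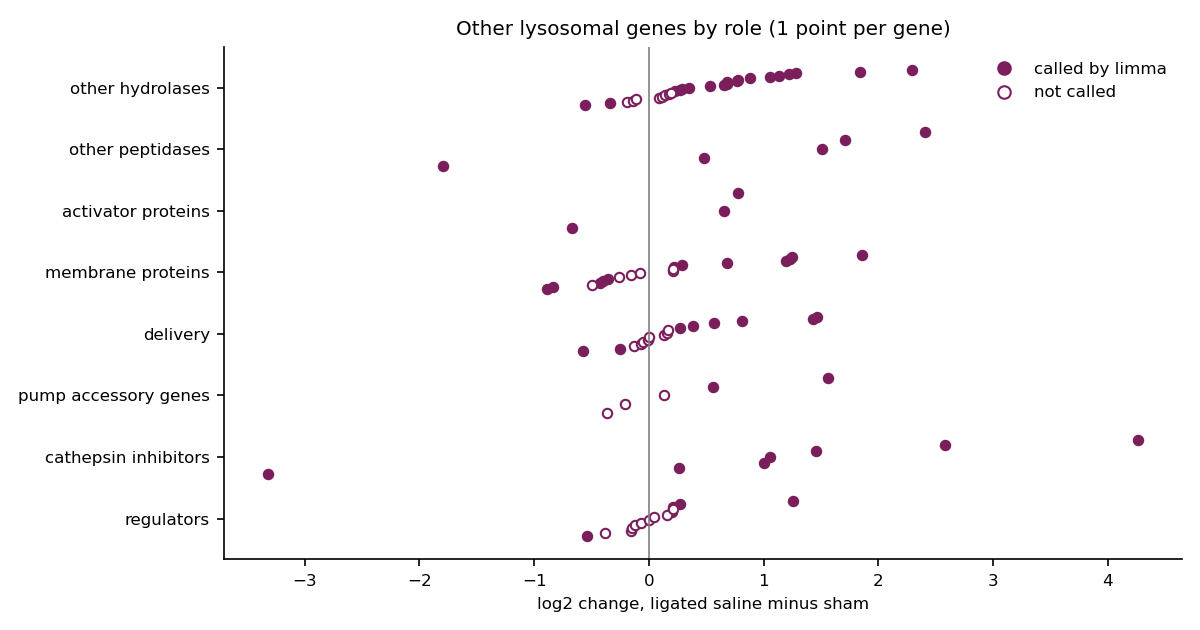
Log2 change for ligation (horizontal axis, ligated saline minus sham) of 95 genes in 8 lists, 1 point per gene, filled where called by limma. The lists hold lysosomal genes and also protease inhibitors and regulators. The vertical offset within a list only separates points, and 48 genes are called higher and 13 lower.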

How the data were processed

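RNA from 17 livers was labelled with biotin and hybridized to oligonucleotide arrays after priming with oligo-dT, per the labels' protocols. The deposited intensity values, made with GCRMA per the submitters' processing notes (version not given in the sources used here), were converted to log2 without a pseudocount. Arrays have no read depth, and precision is limited by how many arrays there are.

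Of 31099 probe sets 57 controls were left out, and 15965 of the others exceeded an intensity of 15.5 (log2 3.95), the median of all values, on at least 5 arrays. Probe sets naming 1 gene were 20826, several 436 and none listed 9780, and 20764 matched RefSeq by gene ID with 0 symbols changed. The fit of 3 group means used limma 3.58.1 under R 4.3.3 (14 residual and 2.54 prior degrees of freedom), called at an adjusted p under 0.05. Related gene pairs were tested by exact permutation.

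Members, 8 pathway lists and 9 marker lists were chosen with earlier results of these data known. Values per array are given for up to 5 largest changes each way per class (at most 16 genes) and the 3 lowest ghrelin p, and the 2 lowest ligation p are named per pathway list. Array numbers within a group follow the order of deposit. The alternatives were no filter, a stricter filter (log2 of 5), quantile normalization, equal array medians, trend and robust eBayes, array weights, the mean of a gene's probe sets, 2 groups alone, and leaving out each array.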

Additional observations from a re-analysis of the deposited data

Results flagged for a closer look

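Among 87 groups of values (29 genes in 3 groups) 4 had an array far from the others of its group, where chance flags about 1 group in 20. Atp6v0a1 was 6.61 on sham 4, with the other sham arrays at 5.85 to 6.12. Atp6v0b was 9.81 on ligated ghrelin 4, with the others at 9.99. Atp6v1c1 was 8.68 on ligated ghrelin 3, with the others at 9.01 to 9.12. Ctsh was 12.34 on ligated saline 5, with the others at 12.62 to 12.75.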

How the results depend on the processing

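No paired analysis was possible because no number of the sample titles occurs in more than 1 group. Of 19 ligation calls 13 were kept under every alternative. The count of genes higher with ligation ran from 10 to 16. The count lower was 4, 3 to 4 with an array left out, 6 with equal array medians (where 10 were higher), and 15 without a filter, when all 42 genes are tested and the added genes lie below the detection level on all arrays. For ligated ghrelin against sham the count lower was 2, 14 without a filter, 1 after quantile normalization and 1 to 2 with an array left out. With ghrelin 1 gene was higher (Atp6v0a1) under the stricter filter, quantile normalization and equal array medians (adjusted p = 0.0491, 0.0427 and 0.0395), and 0 to 1 higher and 0 to 1 lower with an array left out, namely Atp6v0a1 without ligated ghrelin 4 and Ctsk without ligated saline 4. Of 60 single-gene values that changed sign under an alternative, 58 were of genes called neither before nor after, 6 of them for ligation with equal array medians (Atp6v1c1, Atp6v1g1, Atp6v1h, Ctsa, Ctsh and Ctso). The other 2 involved a call. With equal array medians the ligation change of Atp6v1f was -0.0007 (adjusted p = 0.994), and over the mean of its probe sets that of Lamp2 was 0.20 (adjusted p = 0.0337). With equal array medians Lamp2 was at -0.21 (adjusted p = 0.032) and Atp6v0e2 at -0.27 (adjusted p = 0.0238), and after quantile normalization Ctsa was at 0.22 (adjusted p = 0.0484). For ligated ghrelin against sham Atp6v1b2 passed without sham 3 or ligated ghrelin 2 (adjusted p = 0.0371 and 0.0235). The cause was not tested. Over all kept probe sets the higher share of ligation calls was 55.7%, 42.0% after quantile normalization and 39.0% with equal medians, and for ghrelin 59.2%, 67.3% and 80.4%. The pair tests were rerun only with the mean of a gene's kept probe sets and with each array left out. They kept their side of the threshold in all of these.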
